A study of Mus musculus with 24 samples.

Results

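Total H2AX was profiled by chromatin immunoprecipitation and sequencing in male (XY) mouse embryonic fibroblasts (MEFs) that lacked SIRT7 (KO, 2 libraries) or were wild type (WT, 2 libraries). These 4 libraries were chosen by their labels (H2AX antibody, male sex, KO or WT) among 24 in all. MEFs are connective tissue cells grown from embryos. All cells, KO and WT alike, were labelled as strain C57BL6 and had received 5 Gy of X-rays with 30 min of recovery, so that no unirradiated cell enters any value here. The labels give the knockout as SIRT7-KO and name neither the allele nor the embryos. They do not say whether replicates are independent cultures, and KO cannot be told apart from any other difference between the cultures used. The p-values and standard errors rest on a spread pooled over the libraries of both sexes and drawn toward that of the other bins. This spread may be technical, and it can understate the gap between the libraries of a group at a single bin.

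H2AX is a variant of the core histone H2A that sits in a share of nucleosomes throughout the genome. After a DNA double-strand break, the kinases ATM, ATR and DNA-PK phosphorylate its tail, and the phosphorylated form, gH2AX, is bound by the adaptor MDC1, which gathers further repair factors. SIRT7 is a NAD-dependent deacetylase of the sirtuin family that is enriched in the nucleolus and is known for roles in ribosomal DNA transcription and genome stability. Reads of an H2AX library at a given place depend on the histone and on the amount of DNA recovered from that place. Input chromatin of the same cell groups was sequenced without an antibody and measures the recovered DNA without selection for H2AX. It was therefore set beside every H2AX value.

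Reads were counted in bins of 100 kb of the mouse genome (build mm10), and 24033 autosomal bins were tested. The H2AX libraries held 177.9 M and 66.9 M reads in KO and 132.2 M and 242.7 M in WT, and the male input libraries 92.4 M to 220.9 M. The median bin held between 2394 and 8633 reads per H2AX library. Chromosome Y took 1.59% to 1.62% of the reads of the male H2AX libraries and at most 0.0939% of the female ones. Reads of fixed chromatin do not measure expression, so the fibroblast identity was not checked by marker levels. The libraries of a group differed by more than counting error (chi-square per degree of freedom of 3.90 in KO and 3.12 in WT). Levels are given as CPM, reads scaled to the effective autosomal total of each library, and changes as log2 KO/WT ± standard error (SE). Adjusted p-values are Benjamini-Hochberg values of edgeR's quasi-likelihood test, and a bin with a value under 0.05 is named as called.

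Few autosomal bins differed in H2AX. Of 24033 bins, 46 were called (0.191%), 26 higher and 20 lower in KO (0.108% and 0.0832%), against 1827 bins at an unadjusted p under 0.05. They formed 39 separate places, 23 higher and 16 lower. Leaving out 0.05 of the bins at either end, changes ran from -0.07 to 0.07 (log2), with a median of 0.00. The KO and WT libraries did not overlap in 8864 bins (36.9%), which is thus no mark of a change on its own. Input differed in a like number of bins, 53 of 24033 (0.221%, 23 higher and 30 lower). gH2AX of the same cell groups was called in 11020 of 24032 bins (45.9%), in a fit where no bin kept a spread of its own. Its median change was -0.11 in the 2404 bins with the lowest ratio of H2AX to input in male WT cells. It was 0.12 in the 2404 bins with the highest, so the 45.9% includes a broad trend. A single bin lay further from 0 than any called one (chr2:175500001-175600000, -0.89), and it was not called (adjusted p = 0.871).

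The called H2AX bins were sorted by what input did in the same place. A bin was counted as shared when input was called in the same direction and the difference between the H2AX and input changes was not called. It exceeded input when both were called in its direction, was not shared when only that difference was, and was undecided when neither was. Of the 46 bins, 22 were shared (11 higher, 11 lower), 4 exceeded input (all higher), 0 were not shared and 20 were undecided (11 higher, 9 lower). The difference itself was called in 7 of 24033 bins by edgeR (0.0291%, with 1890 at an unadjusted p under 0.05) and in 0 by DESeq2. Bins called in both H2AX and input numbered 26, which is 56.5% of the H2AX calls and 49.1% of the input calls. Over all 24033 bins the H2AX and input changes were hardly related (Pearson's r = 0.06, Spearman's rho = -0.05). These bins come from the same libraries and are no replicates. Over the bins not called for H2AX, r was -0.03. Over the 46 called bins r was 0.91. Those bins were selected by their H2AX change, so this r cannot be compared with that over all bins. Input went the same way as H2AX in 42 of the 46, among them the 26 that were sorted by this direction. The share over all bins was not counted.

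**Figure D1:**
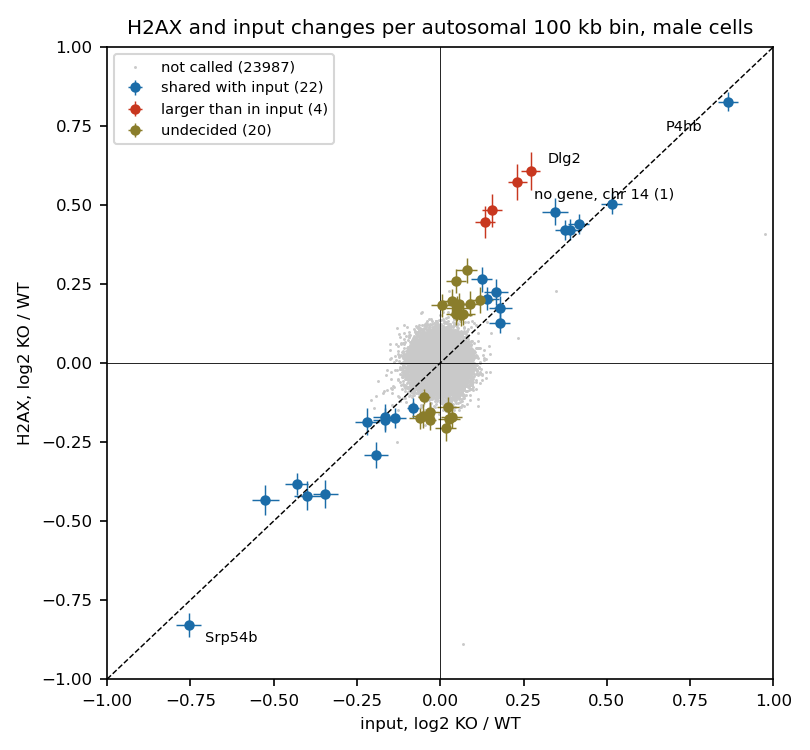
Log2 KO/WT change of H2AX (vertical axis) against that of input (horizontal axis) in male cells, 1 point per autosomal 100 kb bin, with SE bars at the 46 called bins and a dashed line where both changes are equal. The 22 shared bins (blue) follow the line from Srp54b to P4hb, and the 4 bins in red lie above it.

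The highest shared change was at chr11:120500001-120600000, a gene-dense bin that holds P4hb, the beta subunit of prolyl hydroxylase and a protein disulfide isomerase, Gcgr, the glucagon receptor, and Mcrip1. H2AX measured 88.1 and 86.96 CPM in the KO libraries and 48.7 and 49.9 CPM in the WT libraries. Input measured 63.7 and 64.95 CPM in KO and 35.7 and 35.1 CPM in WT. The groups lay far apart in both, and the changes were 0.83 ± 0.03 for H2AX (adjusted p = 1.09e-38) and 0.86 ± 0.03 for input. Their difference was -0.04, with a 95% interval of -0.13 to 0.05. gH2AX was higher there too (0.91), and so was H2AX of female KO cells (0.90).

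This bin lies directly before the one that holds Sirt7, the targeted gene (chr11:120600001-120700000). H2AX of the Sirt7 bin was 50.6 and 50.7 CPM in KO and 53.6 and 52.7 CPM in WT. KO lay below WT by a small margin, and the difference was not called (-0.07 ± 0.03, adjusted p = 0.606). Input was not called there either (-0.00, adjusted p = 0.995). A bin of 100 kb cannot show the loss of single exons, so the knockout itself was not checked by these counts.

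The lowest shared change lay on chromosome 12, over the Srp54 genes, which encode the signal recognition particle subunit that binds signal peptides of nascent secretory proteins. At chr12:55100001-55200000 (Srp54b, Fam177a and part of Srp54a), H2AX was 25.6 and 26.6 CPM in KO against 45.95 and 46.4 CPM in WT. Input was 24.6 and 22.9 CPM in KO against 39.3 and 40.3 CPM in WT. Both thus fell, by 0.83 ± 0.04 in H2AX (log2, adjusted p = 8.78e-33) and by 0.76 ± 0.04 in input, with a difference of -0.08 (95% interval -0.18 to 0.03). The next bin (chr12:55200001-55300000) holds Srp54c, Fam177a2 and Ppp2r3c, a regulatory subunit of a protein phosphatase. Its H2AX level was 34.9 and 34.2 CPM in KO against 45.4 and 44.9 CPM in WT, and its change was -0.38 ± 0.03 against -0.43 in input. In the bin before (chr12:55000001-55100000) and the bin after (chr12:55300001-55400000), H2AX was not called (-0.05 and 0.08). In female cells the Srp54b and Srp54c bins went the other way, with H2AX changes of 0.41 and 0.19.

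The Srp54 genes stand in near-identical copies, and the Cyp2c genes described next are less closely related copies. The placement of reads with several alignments is not given in the sources used here, so reads of the Srp54 copies can be split between their bins. To show how alike the copies are, promoters of 300 bases around the annotated start are printed from RefSeq (GRCm38.p6, plus strand, 5′ to 3′), where all 5 genes had an entry. Capitals mark the bases that are identical in the best local alignment with the named partner. Srp54b (chr12:55154854-55155153) and Srp54c (chr12:55230127-55230426), each set against the other, share a stretch of 91 bases without a mismatch. Srp54a (chr12:55080246-55080545), set against Srp54c, has 259 identical bases in 268 aligned columns (96.6%).
Srp54b: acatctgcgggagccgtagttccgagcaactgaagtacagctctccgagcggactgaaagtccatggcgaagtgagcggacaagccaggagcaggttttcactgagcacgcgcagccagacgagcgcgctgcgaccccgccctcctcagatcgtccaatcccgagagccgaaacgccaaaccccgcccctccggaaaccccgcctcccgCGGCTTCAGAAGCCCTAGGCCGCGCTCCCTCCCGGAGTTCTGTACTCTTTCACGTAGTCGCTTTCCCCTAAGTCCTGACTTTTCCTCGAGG
Srp54c: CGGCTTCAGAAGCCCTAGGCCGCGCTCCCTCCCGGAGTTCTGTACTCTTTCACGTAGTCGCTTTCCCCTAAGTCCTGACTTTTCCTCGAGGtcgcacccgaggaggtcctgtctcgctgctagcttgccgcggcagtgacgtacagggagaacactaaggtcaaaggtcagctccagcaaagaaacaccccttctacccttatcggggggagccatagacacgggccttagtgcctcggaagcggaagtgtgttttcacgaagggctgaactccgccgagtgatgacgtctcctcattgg
Srp54a: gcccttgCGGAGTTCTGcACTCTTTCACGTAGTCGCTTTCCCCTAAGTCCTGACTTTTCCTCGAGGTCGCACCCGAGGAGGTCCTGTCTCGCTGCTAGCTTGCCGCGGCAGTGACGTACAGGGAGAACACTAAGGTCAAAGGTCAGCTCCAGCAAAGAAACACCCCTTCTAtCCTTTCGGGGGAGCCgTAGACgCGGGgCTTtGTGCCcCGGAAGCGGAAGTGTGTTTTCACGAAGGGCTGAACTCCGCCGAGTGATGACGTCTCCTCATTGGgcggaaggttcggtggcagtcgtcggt

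Cyp2c29 (chr19:39286835-39287134) and Cyp2c39 (chr19:39347096-39347395), each set against the other, have 231 identical bases in 288 aligned columns (80.2%). Among 10 pairs of promoters from Ide, Kif11, Btaf1, Sema5b and P4hb, which are not copies of each other, the longest aligned stretch was 12 bases.
Cyp2c29: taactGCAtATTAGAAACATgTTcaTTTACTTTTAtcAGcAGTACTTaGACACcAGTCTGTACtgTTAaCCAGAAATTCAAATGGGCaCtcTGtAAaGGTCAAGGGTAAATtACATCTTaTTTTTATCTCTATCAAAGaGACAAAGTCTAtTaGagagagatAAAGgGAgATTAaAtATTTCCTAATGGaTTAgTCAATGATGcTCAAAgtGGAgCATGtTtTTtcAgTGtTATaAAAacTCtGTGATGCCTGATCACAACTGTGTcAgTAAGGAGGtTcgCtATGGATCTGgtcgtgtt
Cyp2c39: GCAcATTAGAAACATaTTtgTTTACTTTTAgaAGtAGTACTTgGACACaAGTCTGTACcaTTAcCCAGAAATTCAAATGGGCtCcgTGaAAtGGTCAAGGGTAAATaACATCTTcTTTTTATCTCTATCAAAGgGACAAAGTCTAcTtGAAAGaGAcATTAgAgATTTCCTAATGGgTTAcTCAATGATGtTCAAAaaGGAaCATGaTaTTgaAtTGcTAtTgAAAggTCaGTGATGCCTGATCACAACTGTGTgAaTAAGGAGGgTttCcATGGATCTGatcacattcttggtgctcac

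The Cyp2c genes encode cytochrome P450 enzymes that oxidise drugs and fatty acids, and 4 bins of their cluster on chromosome 19 were higher in KO. At chr19:39300001-39400000 (Cyp2c39, Cyp2c29 and Cyp2c38), H2AX was 31.8 and 34.5 CPM in KO against 23.04 and 24.1 CPM in WT. Input was 33.9 and 31.97 CPM in KO against 26.1 and 25.7 CPM in WT. The changes were 0.48 ± 0.04 and 0.34 ± 0.04, and their difference of 0.13 was not called (95% interval 0.01 to 0.25, adjusted p = 0.573). The bin before it (chr19:39200001-39300000, Cyp2c29) rose by 0.20 in H2AX and by 0.14 in input. Further on, chr19:39500001-39600000 (Cyp2c39) and chr19:39900001-40000000 (Cyp2c37) rose by 0.19 and 0.20 in H2AX and were not called in input (0.09 and 0.12), and so counted as undecided. H2AX of female KO cells was not called in any of the 4 bins (-0.02 to 0.02).

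Another place on chromosome 19 carried 3 bins that rose with 2 uncalled bins among them. The bin chr19:37300001-37400000 holds Ide, the insulin-degrading enzyme, and Kif11, the kinesin that pushes spindle poles apart. H2AX there was 60.6 and 60.1 CPM in KO against 42.6 and 42.5 CPM in WT, a change of 0.50 ± 0.03 (adjusted p = 8.42e-23) beside 0.51 ± 0.03 in input. The neighbour chr19:37200001-37300000 holds Ide, the mitochondrial ubiquitin ligase gene Marchf5, and Cpeb3, a regulator of messenger RNA translation, and had 60.1 and 60.7 CPM against 45.4 and 43.7 CPM. It rose by 0.44 in H2AX and 0.42 in input. The bin chr19:36900001-37000000, with Btaf1, an ATPase that removes TATA-binding protein from DNA, and Fgfbp3, had 51.8 and 54.00 CPM against 40.1 and 38.8 CPM, a rise of 0.42 beside 0.39 in input. H2AX was not called at chr19:37000001-37100000 (0.00) or chr19:37100001-37200000 (0.09). Across the 3 raised bins the difference from input had 95% intervals within -0.10 and 0.12. In female cells H2AX was not called in any of them (-0.00 to 0.06).

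On chromosome 16 the bin of Sema5b, a semaphorin of axon guidance (chr16:35500001-35600000), had H2AX levels of 56.6 and 53.9 CPM in KO against 41.5 and 41.4 CPM in WT. It rose by 0.42 ± 0.03 in H2AX and by 0.38 ± 0.03 in input. The bin before it, with Pdia5, another disulfide isomerase (chr16:35400001-35500000), rose by 0.13 (adjusted p = 0.0499) beside 0.18 in input. Its call was lost when any 1 of the 4 male H2AX libraries was left out.

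The widest lower stretch held no annotated protein-coding gene. The 4 bins of chr2:100400001-100800000 fell by 0.19, 0.43, 0.42 and 0.41 (log2), in genome order, against 0.22, 0.52, 0.40 and 0.34 in input. In one of them, chr2:100500001-100600000, H2AX was 17.7 and 20.1 CPM in KO and 25.9 and 24.6 CPM in WT. Another lower bin, chr2:111800001-111900000, holds the olfactory receptor genes Olfr1303 and Olfr1305, with 28.6 and 26.3 CPM in KO against 32.6 and 35.00 CPM in WT. It fell by 0.29 ± 0.04 in H2AX and by 0.19 in input. H2AX of female cells was not called in these 5 bins (-0.02 to 0.03).

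**Figure D2:**
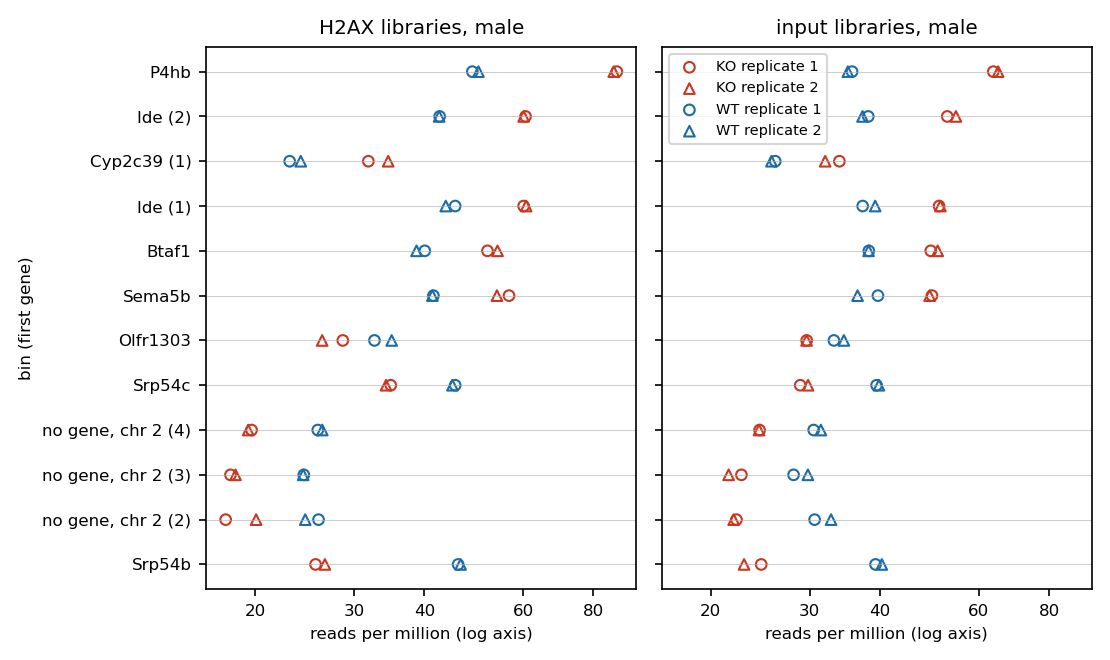
Reads per M (CPM, log axis) in each male H2AX library (left) and input library (right) at the 12 bins called under every alternative analysis; red is KO, blue WT, circles replicate 1 and triangles replicate 2. KO and WT are apart on both sides in all 12, with KO above WT in 6 (P4hb: 88.1 and 86.96 against 48.7 and 49.9 in H2AX) and below in 6.

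The 12 bins in the plot of library values are those called for H2AX in each of 15 alternative analyses, which changed the threshold, the tool, the scaling, the libraries used or the treatment of replicates. All 12 belonged to the shared class, 6 higher and 6 lower. They changed by at least 0.29 (absolute log2), and the input change was between 0.665 and 1.21 times the H2AX change, with a median of 0.934. The 95% intervals of the 12 differences from input lay between -0.21 and 0.25, and 1 of them excluded 0, that of the Cyp2c39 bin. The surroundings of the changed places are drawn in the plot of profiles by distance.

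**Figure D3:**
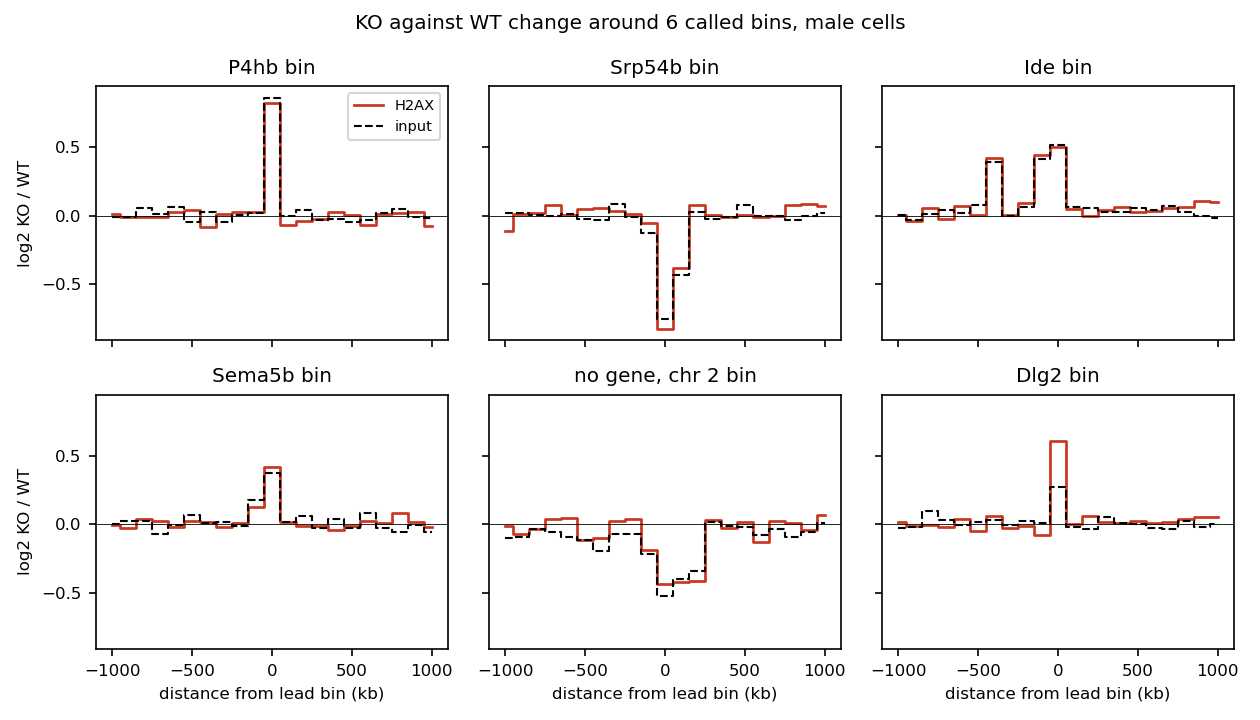
Log2 KO/WT change of H2AX (red) and input (dashed) in male cells in 100 kb bins up to 1000 kb from 6 called bins. The lines run together at P4hb (0.83 and 0.86), Srp54b (-0.83 and -0.76), Ide, Sema5b and the gene-free bins of chromosome 2, while at Dlg2 H2AX reached 0.61 and input 0.27.

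The remaining shared bins changed by at most 0.27 (absolute log2). Tiam2, an activator of the GTPase Rac (chr17:3300001-3400000), had H2AX levels of 71.9 and 86.6 CPM in KO against 63.6 and 66.7 CPM in WT. It rose by 0.27 ± 0.04 in H2AX and 0.12 in input, and the H2AX change was 0.14 without KO replicate 2 and 0.41 without KO replicate 1. Its call was lost with DESeq2 (adjusted p = 0.798) and with edgeR's robust estimates (adjusted p = 0.689). A bin with Zfp791, a zinc finger gene, and Cks1brt rose by 0.17 beside 0.18 in input (chr8:85100001-85200000). The bin of Cgn, the tight junction protein cingulin, and Selenbp2 fell by 0.18 beside 0.16 in input (chr3:94700001-94800000). Gene-free bins rose at chr19:21900001-22000000 (0.22) and fell at chr15:91900001-92000000, chr2:123500001-123600000 and chr12:3100001-3200000 (-0.17, -0.17 and -0.14). The last of these is among the autosomal bins with the most input reads, with H2AX at 1177 and 1070 CPM in KO and 1255 and 1227 CPM in WT. Without KO replicate 2 its change was -0.08 and not called.

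At 4 bins the H2AX change exceeded that of input. They hold Dlg2, a scaffold protein of synapses, with the vesicle transport gene Sytl2 and the complex I assembly gene Tmem126b (chr7:90400001-90500000), no protein-coding gene (chr14:45800001-45900000), Srgap1, a GTPase-activating protein of Slit-Robo signalling, with BC048403 (chr10:121700001-121800000), and Hsd17b11, a steroid dehydrogenase, with Sparcl1 and Nudt9 (chr5:104000001-104100000). At Dlg2, H2AX measured 232.5 and 323.2 CPM in KO against 167.8 and 195.1 CPM in WT. KO lay above WT, but the KO libraries differed from each other by more than the nearest KO and WT libraries did. Input measured 82.7 and 93.7 CPM in KO against 69.1 and 77.5 CPM in WT. The changes were 0.61 ± 0.06 in H2AX and 0.27 ± 0.03 in input, and their difference of 0.33 was called (95% interval 0.21 to 0.46, adjusted p = 0.00207).

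The other 3 bins had the same form. The gene-free bin of chromosome 14 had 169.0 and 231.8 CPM in KO against 124.5 and 143.1 CPM in WT, and rose by 0.57 in H2AX and 0.23 in input. Srgap1 had 130.7 and 172.2 CPM against 100.1 and 114.8 CPM, and rose by 0.48 and 0.16. Hsd17b11 had 114.0 and 148.5 CPM against 90.7 and 100.1 CPM, and rose by 0.45 and 0.13. The adjusted p-values of the 3 differences from input were each 8.20e-04. Among 24033 bins, the 4 ranked 1, 2, 3 and 7 by the ratio of H2AX to input in male WT cells. The bins of Rbm19 and Kdm4b, which ranked 4 and 5, were not called (-0.03 and -0.04).

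The libraries of a group stood apart at these bins. At Dlg2, replicate 2 was 1.39 times replicate 1 in KO and 1.16 times in WT. Replicate 2 was the higher one in all 4 H2AX groups of both sexes at 4 of the 4 bins, against 6.3% of all autosomal bins. The same order held at 7 of the 20 undecided bins (35%) and at 2 of the 22 shared bins (9.09%). Without KO replicate 2, the smaller library, the H2AX changes at Dlg2, the gene-free bin, Srgap1 and Hsd17b11 were 0.36, 0.33, 0.28 and 0.25 and still called. The 4 calls were lost with edgeR's robust estimates, which let bins with a large spread keep it (adjusted p of 0.645, 0.638, 0.668 and 0.667), and with DESeq2 (0.680, 0.639, 0.742 and 0.730). The SE of the H2AX change at Dlg2 was 0.22 with robust estimates, against 0.06 in the main fit. The number of bins that exceeded input was 0 with robust estimates and 0 without H2AX KO replicate 2, H2AX WT replicate 1, input KO replicate 1 or input WT replicate 2. It was 2 without input KO replicate 2 or input WT replicate 1.

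Female cells showed the opposite order at the same bins. At Dlg2, H2AX of female cells was 217.3 and 242.7 CPM in KO against 260.5 and 329.0 CPM in WT, a change of -0.36. The changes at the gene-free bin of chromosome 14, Srgap1 and Hsd17b11 were -0.33, -0.30 and -0.27 in females. Female input was lower in KO in all 4 bins as well (-0.28, -0.20, -0.16 and -0.17). gH2AX of male cells was higher in KO by 0.08, 0.11, 0.08 and 0.09, all called. Among the 2404 bins with the highest ratio of H2AX to input in male WT cells, gH2AX was called higher in 69.9%. Their median gH2AX change was 0.12, and 23.6% of all bins were called higher, so the 4 values are nothing particular to these bins.

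**Figure D4:**
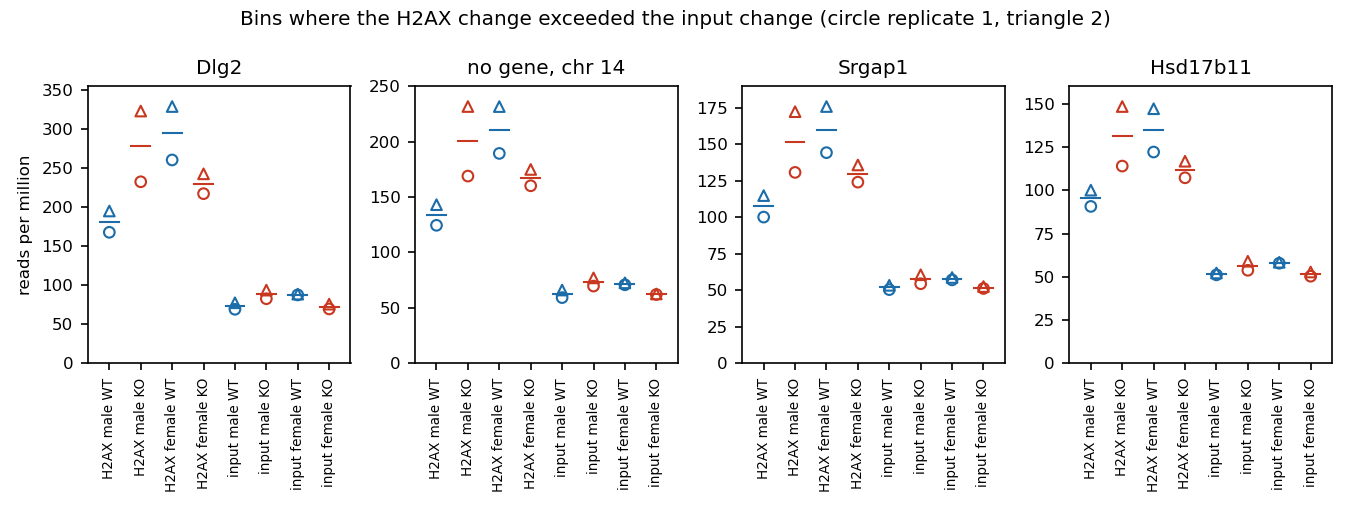
Reads per M (CPM) at the 4 bins where the H2AX change exceeded the input change, in H2AX and input libraries of both sexes; circles are replicate 1, triangles replicate 2 and bars the mean of both. KO is above WT in males (Dlg2 in H2AX: 232.5 and 323.2 against 167.8 and 195.1) and below WT in females, with wide gaps between the libraries of a group.

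The 20 undecided bins changed by 0.11 to 0.29 (absolute log2), and input was called in none of them by edgeR (lowest adjusted p = 0.285). Their differences from input ran from -0.22 to 0.21, and 15 of the 20 unadjusted 95% intervals excluded 0, while the lowest adjusted p was 0.0941. The highest change was at the bin of Cbr1 and Cbr3, carbonyl reductases of the cytosol, with Setd4 (chr16:93600001-93700000), where H2AX was 66.8 and 80.98 CPM in KO against 57.9 and 61.1 CPM in WT. It rose by 0.29 ± 0.04 against 0.08 in input. Next came Commd1, a regulator of copper transport, with the chaperonin subunit gene Cct4 and Zrsr1 (chr11:22900001-23000000), with 69.9 and 83.1 CPM against 61.5 and 64.7 CPM, a change of 0.26 beside 0.05 in input. The changes of both bins were 0.16 and 0.14 without KO replicate 2 and 0.44 and 0.39 without KO replicate 1, and both calls were lost with DESeq2 and with robust estimates.

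Of the 20 undecided calls, 18 were lost when 1 male H2AX library or another was left out, all but those of Cbr3 and Commd1, and 10 were lost with DESeq2. Of the other undecided bins that rose, those of Dcc, a netrin receptor, Cdh13, a cadherin without a cytoplasmic domain, and Akr1c6, a ketosteroid reductase, rose by 0.20, 0.19 and 0.17. They were at 0.11, 0.11 and 0.10 and no longer called without KO replicate 2, and at 0.31, 0.28 and 0.27 without KO replicate 1. Gm1988, Cped1 and a bin with Ccdc25, the cohesin acetyltransferase gene Esco2 and the mitotic kinase gene Pbk rose by 0.16, 0.15 and 0.15, and a gene-free bin at chr9:69600001-69700000 by 0.18. The bin of Hmgcll1, an enzyme that splits HMG-CoA, fell furthest, with 27.7 and 26.96 CPM in KO against 31.4 and 31.7 CPM in WT (-0.20 ± 0.04) and input at 0.02. Edil3 and Thsd7a fell by 0.18 and 0.17, Pappa, a protease of insulin-like growth factor binding proteins, by 0.17, Mrgprd by 0.16, and Syne2, which links the nuclear envelope to the cytoskeleton, by 0.14. Gene-free bins fell by 0.17 at chr14:124800001-124900000 and by 0.11 at chr9:35300001-35400000. The latter is among the autosomal bins with the most input reads, and was at -0.07 and not called without KO replicate 2. Its call was also lost with DESeq2 (adjusted p = 0.581).

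The bin chr17:39800001-39900000 holds Rn18s-rs5, named for its likeness to ribosomal RNA, and was lower in H2AX and higher in gH2AX. H2AX was 195.2 and 198.6 CPM in KO against 221.1 and 224.9 CPM in WT, a change of -0.18 ± 0.03 (adjusted p = 4.70e-04) beside -0.03 in input. gH2AX was 3823 and 3610 CPM in KO against 2161 and 2059 CPM in WT (0.82). In female cells H2AX fell there as well (-0.28) and so did input (-0.10), while gH2AX went the other way from males, with 2280 and 2101 CPM in KO against 3699 and 3330 CPM in WT. The call in males was lost without WT replicate 2.

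**Figure D5:**
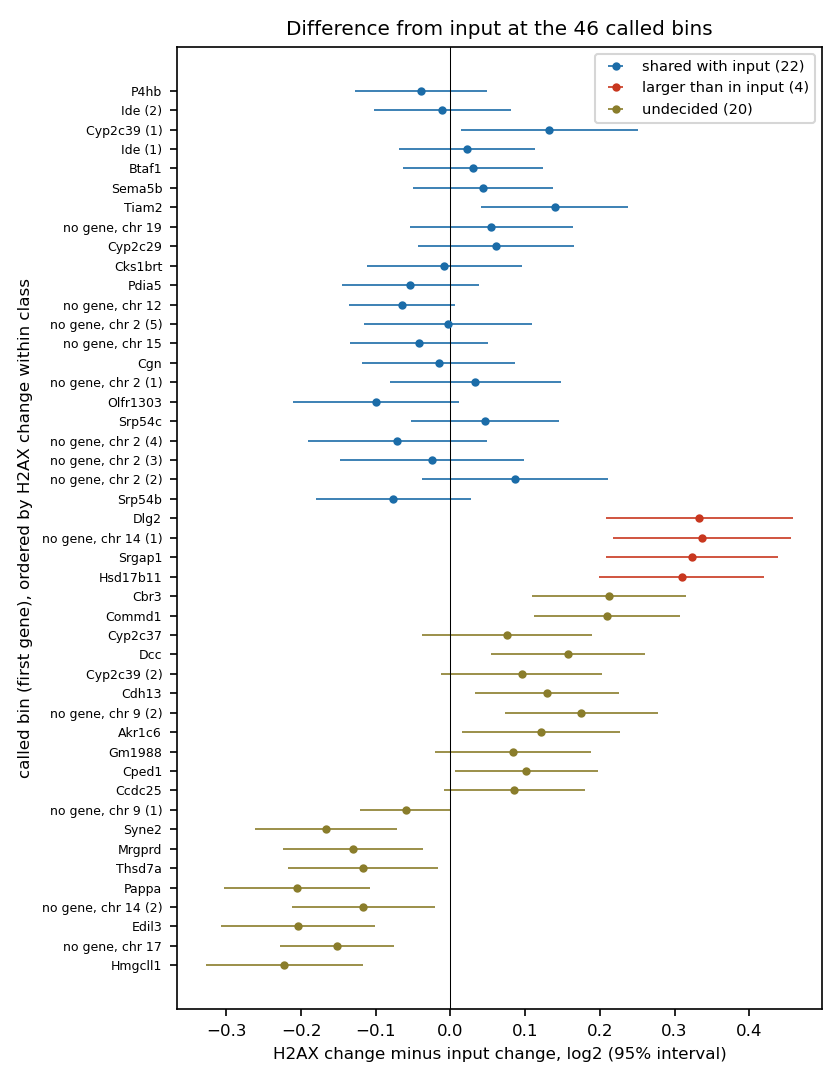
H2AX change minus input change (log2, horizontal axis) with its 95% interval at each of the 46 called bins of male cells, named by the first gene and ordered by the H2AX change within each class. The 4 bins in red lie from 0.31 to 0.34, and the shared bins in blue from -0.10 to 0.14.

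Outside the called bins, the difference between H2AX and input was called in 3 bins where neither change was called alone. H2AX and input went opposite ways in each. The values were -0.14 for H2AX and 0.11 for input at chr10:37600001-37700000, 0.12 and -0.11 at chr10:123800001-123900000, both gene-free, and -0.11 and 0.11 at the bin of Arid4b, a subunit of a histone deacetylase complex (chr13:14100001-14200000). Conversely, 27 bins were called in input alone. H2AX had the same sign in 18 of the 27, with a median size of 0.05 against 0.15 in input. The share with the same sign over all bins was not counted, so 18 of 27 is no measure of agreement. They included the bin of the agouti signalling gene and Ahcy (chr2:155000001-155100000), with 0.23 in input and 0.08 in H2AX.

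The genes that act on H2AX and on breaks lay in bins that were not called. H2AX at its own gene, H2ax (chr9:44300001-44400000), was 49.7 and 46.03 CPM in KO against 46.9 and 47.9 CPM in WT, with overlapping groups (0.02 ± 0.03, adjusted p = 0.923). The changes at Atm, the kinase, Mdc1, the gH2AX reader, Trp53, encoding p53, its target Cdkn1a, a cell cycle inhibitor, and Col1a1, the fibroblast collagen, were -0.01, -0.03, -0.03, -0.06 and -0.02, none of them called. Among 33 bins of genes of H2AX and break signalling, 0 were called by edgeR or by DESeq2 and 3 had an unadjusted p under 0.05, with a median change of -0.01. gH2AX was called higher in 19 of the same 33 bins (57.6%), against 23.6% of all bins. It was called higher in 33.1% and 41.4% of bins with the midpoints of 1 and 2 protein-coding genes. The share was 52.1% with 3 to 4 midpoints and 63.4% with 5 or more. The midpoints in the 33 bins were not counted, so whether their share is particular to this list was not tested. Bins of end joining (18), homologous recombination (25), H2AX phosphatases and remodellers (22), p53 targets (33), sirtuins (7) and chromatin factors of ribosomal DNA (20) likewise held 0 calls by edgeR and DESeq2. Their medians lay between -0.01 and 0.01, and 0, 2, 1, 0, 1 and 1 of their bins had an unadjusted p under 0.05. Of all bins, 7.60% had such a p and 0.191% were called. The 0 calls in lists of 7 to 33 bins thus show nothing particular to these genes.

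Large gene families had medians near the 0.00 of all bins. In 418 bins of long genes at fragile sites, edgeR called 2 (0.478%, against 0.191% of all bins), those of Dlg2 and Cdh13 described above, and DESeq2 called 0 (median 0.01). Of 339 olfactory receptor bins 1 fell (0.295%), that of Olfr1303 (median 0.02), and of 375 zinc finger bins 1 rose (0.267%), that of Zfp791 (median 0.00). Counts this small show nothing particular to a list. The 216 vomeronasal receptor bins and the 75 ribosomal protein bins held 0 calls by edgeR and DESeq2, with 17 and 6 at an unadjusted p under 0.05 (7.87% and 8.00%, against 7.60% of all bins). Fibroblast marker bins (30) held 0 calls by both tools and 3 at an unadjusted p under 0.05, with a median of -0.02. Bins of neuronal, epithelial, endothelial and haematopoietic marker genes (14, 7, 6 and 11) also held 0 by both, with 3, 0, 0 and 1 at an unadjusted p under 0.05. In the 13359 bins without the midpoint of a protein-coding gene, 10 rose and 13 fell (0.172% in all). Chromosome 19 held 8 of the higher bins in 583 (1.37%, against 0.108% of all bins), all of them in the Ide and Cyp2c regions but 1, and chromosome 2 held 6 of the lower ones in 1791 (0.335%, against 0.0832%).

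Whether the H2AX changes of male cells were those of female cells was tested by the difference between the effects. It was called in 69 of 24033 bins (0.287%), among them 31 of the 46 bins called in males, of which 17 were shared with input. H2AX of female cells was itself called in 37 bins (0.154%). In 13 bins both sexes were called, which is 28.3% of the male and 35.1% of the female calls, and in 11 of these 13 the directions were opposite. The bins called in the same direction were those of P4hb and Rn18s-rs5. The bins of Srp54b, Srp54c, Tiam2, Cgn, Cbr3, Commd1 and Dcc and the 4 that exceeded input made up the 11.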

How the data were processed

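Per the labels, H2AX, gH2AX and input DNA were sequenced in 12 groups of 2 libraries. The authors deposited raw read counts per 100 kb bin, 1 column per library; 24 further columns match no labelled sample and were not used. Bowtie2 2.2.9, MACS2 2.2.7.1, FastQC 0.11.3, SAMtools 0.1.19, Trimmomatic 0.36, deepTools 2.4.2 and build mm10 are listed per the submitters' processing notes. Handling of duplicates and of reads with several alignments is not given in the sources used here. Counts of chromosomes 1 to 19 and X were tested with edgeR 4.0.16 under R 4.3.3 (filterByExpr, TMM on autosomal bins, two-sided quasi-likelihood F test, adjusted over 25703 bins). A mean per sex and genotype was fitted over the 8 libraries of H2AX, input or gH2AX, and a mean per group over all 24 for the difference between H2AX and input. SE is the absolute change over the root of F. The fits were tested on simulated data with 150 changed bins per size of change. The H2AX test found 54.7% of 1.1-fold and 100% of 1.2-fold changes. The test of the difference from input found 17.3% and 93.3%, so it missed most differences of 1.1-fold. Genes are RefSeq's (GRCm38.p6), matched by overlap with a bin, the 3 with the longest overlap being named. The rule for named bins took called bins whose KO and WT libraries do not overlap: the 6 regions per direction with the most bins, the 6 bins per direction with the largest change in each class and up to 2 per gene list, plus fixed bins. Bins beyond this rule are named after their values were seen, so that all 46 are accounted for. Members and lists were chosen with earlier results of these data known. Alternatives were DESeq2 1.42.0, other scalings, filters and thresholds, a replicate block and leaving out each library. Depth was 66.9 to 242.7 M reads per male H2AX library. The labels give no sequencing batch.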

Additional observations from a re-analysis of the deposited data

Results flagged for a closer look

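The KO effect on H2AX differed between male and female cells in 69 autosomal bins by edgeR's test of the difference, and 31 of these were bins called in males. Values are given for these 31 only, as the male minus the female log2 effect. The test used H2AX libraries alone, and a sex difference relative to input was not tested. Of the 31 bins, 17 were shared with input in males, 4 exceeded input and 10 were undecided. Input changed by -0.76 in males and 0.39 in females at Srp54b, and by 0.27 and -0.28 at Dlg2. Among those 31 the gap was widest at Srp54b (-1.24) and next at Dlg2 (0.97), the gene-free bin chr14:45800001-45900000 (0.90), Srgap1 (0.79) and Hsd17b11 (0.71), followed by Srp54c (-0.58) and Cbr3 (0.51). In the Ide region it was 0.51, 0.38 and 0.42, at the bins of Kif11, Marchf5 and Btaf1. It was 0.49 and 0.22 at the Cyp2c39 and Cyp2c29 bins, 0.46 at Tiam2, 0.43 at Sema5b and 0.42 at Commd1. In the last 3 bins of chr2:100400001-100800000 it was -0.43, -0.43 and -0.39, and -0.29 at Olfr1303. Further values were 0.38 at Dcc, -0.34 at Cgn, 0.32 at Cdh13, 0.25 at Akr1c6, 0.21 at Esco2 and -0.20 at Mrgprd. Among gene-free bins it was 0.25 at chr19:21900001-22000000, -0.23 at chr15:91900001-92000000, 0.23 at chr9:69600001-69700000, -0.20 at chr12:3100001-3200000, -0.19 at chr14:124800001-124900000 and -0.15 at chr9:35300001-35400000. Each sex has 2 libraries per genotype, so differences between cultures and between sexes cannot be told apart.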

How the results depend on the processing

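No H2AX change at a called bin reversed under any alternative. The 46 H2AX calls became 17 with a 1.1-fold minimum, 29 with DESeq2 (27 of them among the 46) and 76 with a replicate block, and ranged from 23 to 308 with 1 library left out. The 308 arose without KO replicate 1, which leaves the 66.9 M library as the lone KO sample, assumed to vary like the other groups. The 53 input calls became 35 at an adjusted p under 0.01, 12 with the 1.1-fold minimum and 28 with DESeq2, and ranged from 34 to 62 with 1 library left out. The 7 calls of the difference from input became 4 at an adjusted p under 0.01, 0 with the 1.1-fold minimum, with DESeq2 and with robust estimates (chosen after seeing the data), 11 with the replicate block and 13 with a replicate block within sex and genotype (also added), and ranged from 0 to 72 with 1 library left out. The 69 bins of the sex difference ranged from 50 to 227. With 1 library left out, bins exceeding input ranged from 0 to 5 (0 with robust estimates), not shared from 0 to 52, undecided from 4 to 232 and shared from 15 to 23; the 5, 52, 72, 227 and 232 all arose without H2AX KO replicate 1. The replicate numbers were not taken to pair the libraries: deviations of same-numbered KO and WT libraries correlated at 0.04 in H2AX and in input. The cause of these shifts was not tested.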
